A study of Mus musculus with 12 samples.

Results

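The genes described here encode the proteins of the extracellular matrix and the enzymes that cut it: collagens, laminins, matrix metalloproteinases (MMPs), tissue inhibitors of metalloproteinases (TIMPs) and 9 further matrix genes (Fn1, Fbn2, Sparc, Lum, Dcn, Bgn, Eln, Nid1 and Hspg2). They were chosen by gene symbol alone, from spots that carry a single symbol. The choice gave 91 spots of 82 genes, out of 22138 gene spots and 15081 named genes on the arrays. Fbn1, a fibrillin that the same rule names, was not analysed here. Mouse total RNA was labelled green (Cy3) and hybridised together with commercial embryonic RNA labelled red (Cy5), which served as the common reference on all 12 spotted arrays. The 4 groups were NLS 1GH, NLS 0GH, WT 1GH and WT 0GH, with 3 arrays each, lettered b, c and d. The series bears the title of a nuclear growth hormone receptor, and the labels spell out neither NLS nor WT, nor the number 10 that follows them in every sample name. They name no cell type and no strain. They list human growth hormone at 100 ng/ml for all 4 groups and call the experiment a time course, but give no unit for the 1 or 0 written before GH. Nothing in the labels says that the letters are separate cultures, so the p-values below measure only the spread between these arrays, which may be technical. They also treat the 12 arrays as independent, although arrays of one letter appear to share a labelled reference.

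Collagens are triple helices of 3 chains. Fibrillar collagens form the rope-like fibres of connective tissue, and network collagens, above all type IV, join laminins, nidogen and perlecan in the sheet of the basement membrane. Fibroblasts, cartilage cells and other mesenchymal cells make most of this material in an embryo, whereas blood cells are known to make little of it and to carry MMPs, which open the matrix as cells move, together with the TIMPs that block them.

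All values below are log2 ratios of the sample over the embryonic reference, with the median gene spot of each array set to 0. A value of -3 therefore means a ratio that is 3 log2 units under that of the median spot of the array. The direction was not stated by the submitters and is likely rather than settled. It rests on 45 measured genes typical of embryonic tissue, none of them a collagen, laminin or matrix gene of the present set, of which 39 lay on the reference side (86.7%, median -4.27). Under the opposite reading every sign below turns. The dyes were never swapped, so a dye effect of a spot and its level against the reference cannot be told apart. Neither can fewer cells of a type and less RNA per cell in such bulk RNA. Arrays held values for 15939 to 19700 spots and correlated with each other across spots at 0.306 to 0.693. Of 6 pan-leukocyte marker genes, 6 lay above the array median (median 2.52), as did 7 of 9 measured B lymphoid (median 0.78), 5 of 8 endothelial (0.90) and 4 of 6 erythroid and megakaryocyte markers (0.54). Of the myeloid and mast markers 3 of 8 lay above it (median -1.07), and of the T lymphoid markers 2 of 5 (-0.13). Of 9 measured fibroblast and stroma markers 1 lay above it (median -1.24), and of 6 epithelial markers 0 did (median -2.15).

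The collagen, laminin and matrix genes lay low against the embryonic reference on every array. Among the 77 spots with at least 6 values, the mean over arrays was below 0 for 69 (89.6%), compared with 50.8% of all 18593 gene spots measured as often. Their median was -2.60, below the lower quartile of all gene spots (-1.16). Of the 61 spots (58 genes) with at least 2 values in every group, 38 were called lower than the array median (62.3%; limma, adjusted p under 0.05) against a background of 19.8% of all 16063 spots tested, and 2 were called higher (3.28%), against 24.6%. The median level of the 61 spots was -1.95, against 0.12 for all spots tested. By array, between 73.7% and 86.4% of the measured spots of the set lay below the array median. The set is uneven inside itself: the collagens and glycoproteins were mostly low, while the metalloproteinases lay nearer 0 (median of means -0.22). They still leaned low, with 11 of 16 means below 0 (68.8%). The counts of called spots by role below stand against the same 19.8% and 24.6% of all spots tested.

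**Figure D1:**
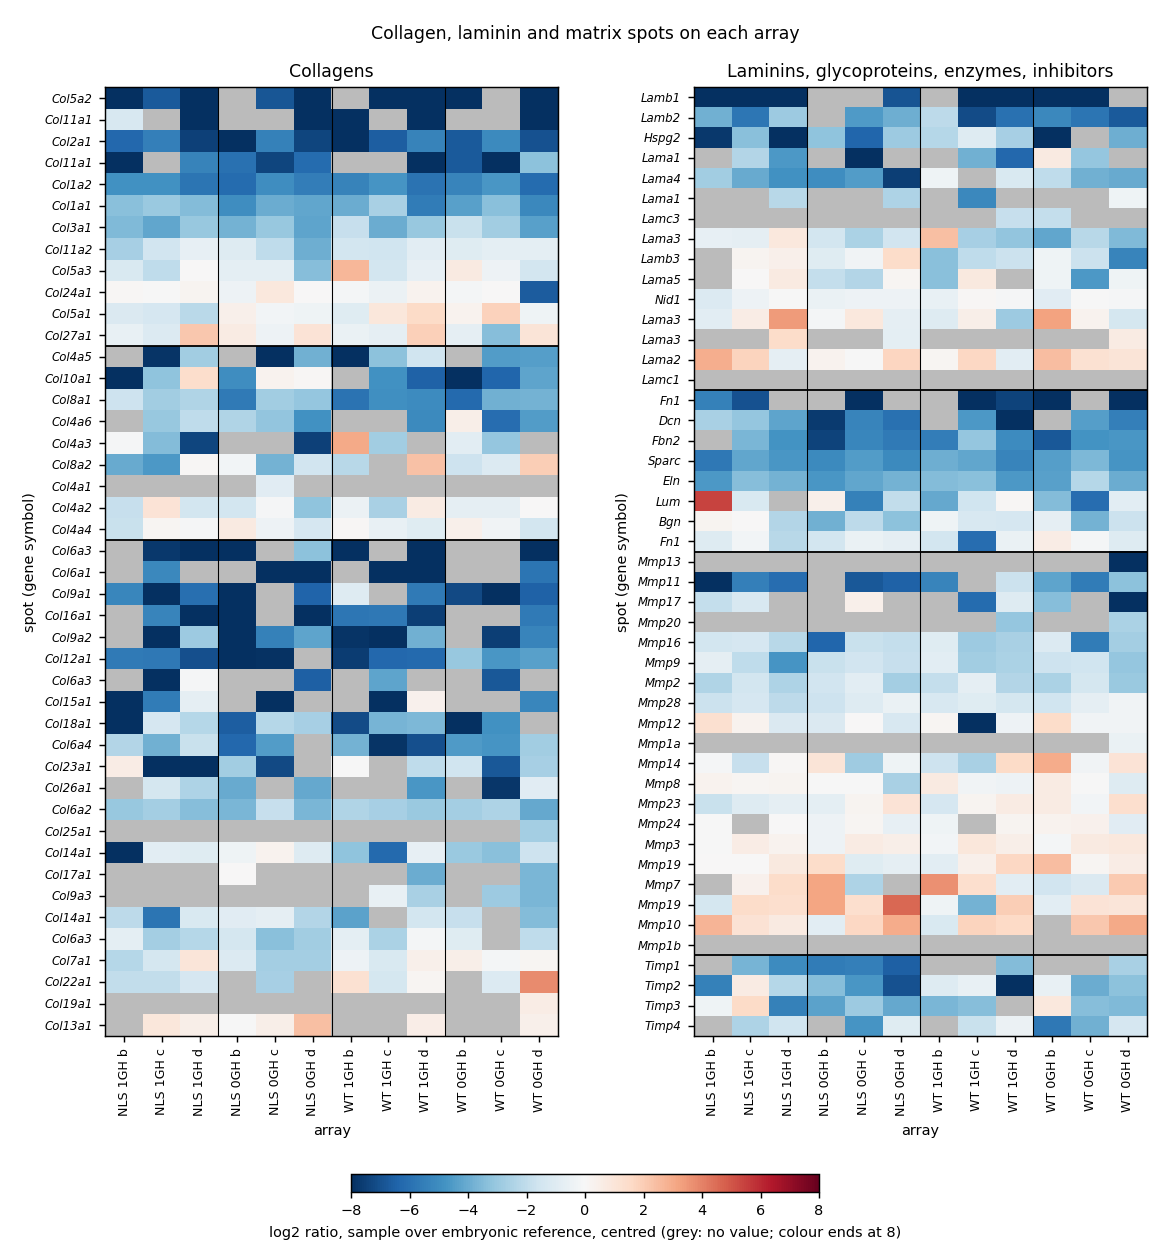
Centred log2 ratio (sample over embryonic reference) of the 91 spots on the 12 arrays, collagens at the left and the other genes at the right, ordered by role and mean. Blue is below the array median, red above it and grey has no value. Blue fills most collagen rows on all arrays, while the metalloproteinase rows are pale or mixed.

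Fibrillar collagens held 12 spots of 11 genes, and 12 of 12 had a mean below 0 (median -3.64). Of the 10 fitted, 6 were called lower, 0 higher and 4 were not called. The chains of type I collagen, the main collagen of bone, skin and tendon, were among the steadiest values of the set. Col1a2 stood at -4.85, -4.82 and -5.82 on NLS 1GH arrays b, c and d, at -6.15, -4.97 and -5.52 in NLS 0GH, at -5.37, -4.75 and -5.89 in WT 1GH, and at -5.27, -4.64 and -6.14 in WT 0GH. All 12 values fell within a span of under 2 log2 units and the 4 groups overlapped. The fitted level was -5.35 ± 0.21 (SE, adjusted p = 7.07e-07 in the limma fit of all spots). Its partner chain Col1a1 stood at -3.37, -2.98 and -3.49 in NLS 1GH, at -4.95, -3.97 and -4.15 in NLS 0GH, at -3.94, -2.61 and -5.61 in WT 1GH, and at -4.37, -3.34 and -5.16 in WT 0GH. These values too were all below 0 and gave -4.0 ± 0.27 (SE, adjusted p = 7.01e-06, limma). NLS 1GH lay above NLS 0GH without overlap (difference 1.08 ± 0.77, SE, not called), while the other pairs of groups overlapped. Col3a1, the fibrillar chain of soft tissues and vessel walls, was below 0 on all 12 arrays, from -4.35 in WT 0GH d to -1.76 in WT 0GH b, at a level of -3.29 ± 0.27 (SE).

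The lowest fitted spot of the set was Col5a2, a chain of the type V collagen that seeds type I fibrils, at -10.67 ± 1.07 (SE), with values on 9 arrays between -14.87 and -6.71. Some of these are beyond 8.36, the largest log2 ratio that a 16-bit scanner gives over the submitters' floor of 200, so the size is less certain than the side. Over the whole set 52 of 838 values, in 25 spots, passed that bound before centring. Col2a1, the cartilage collagen, followed at -7.21 ± 0.69 (SE), with 12 of 12 values below -5 and the lowest, -14.16, on NLS 0GH b. Col11a2, another cartilage chain, was called at -1.52 ± 0.27 (SE). The fibrillar chains that were not called were Col5a1 (-0.13), Col5a3 (-0.73), Col24a1 (-0.54) and Col27a1 (-0.06), whose values fell on both sides of 0. Col5a1 and Col5a2 encode chains of the same collagen type, so within type V the measured spots stood far apart.

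**Figure D2:**
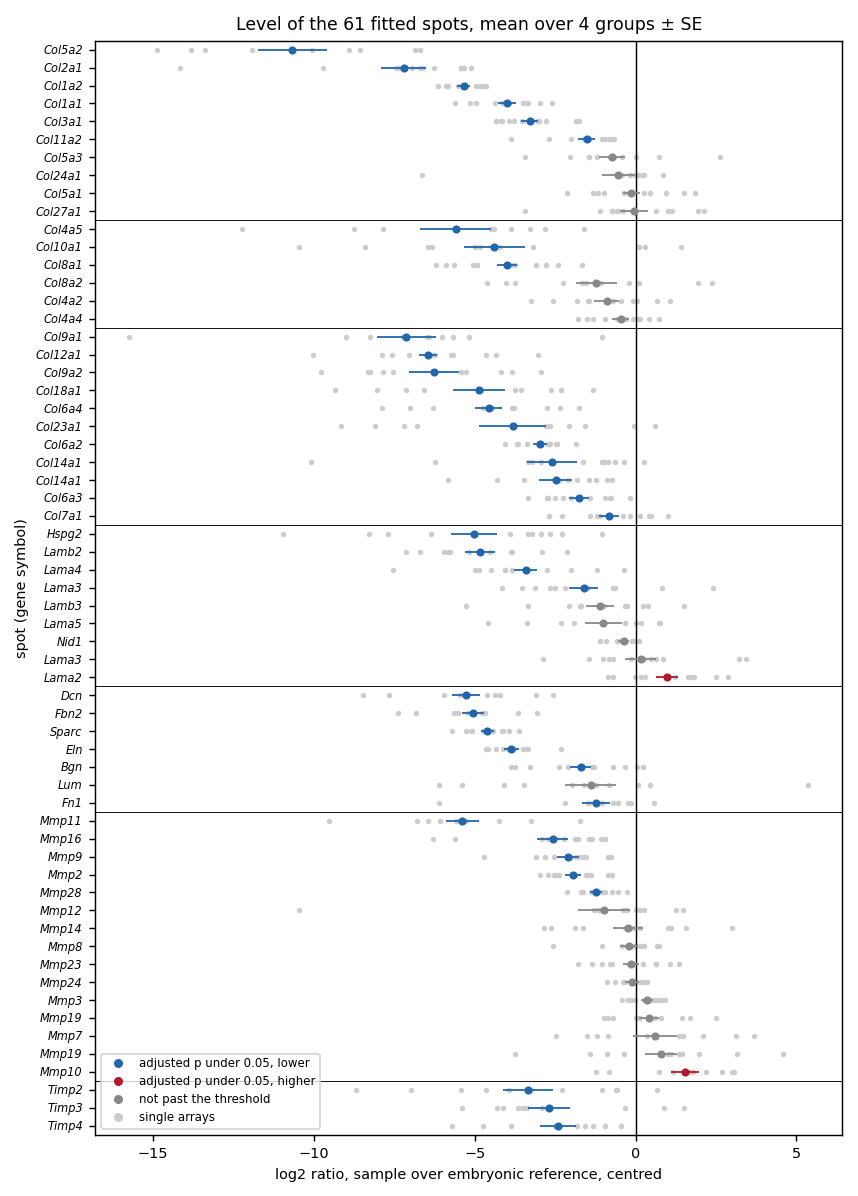
Level of the 61 fitted spots against the array median, as the mean over the 4 groups with its SE from limma (coloured) and the single arrays (light grey), by role. Of the 61, 38 lie significantly lower and 2 (Lama2 and Mmp10) higher, and the metalloproteinases lie nearest to 0.

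Upstream sequences are shown for 3 structural genes that were below 0 on all 12 arrays (Col1a2, Col3a1 and Sparc) beside the pair of genes called higher (Mmp10 and Lama2), so that low and higher genes can be set side by side. Each run is the 250 bases before the annotated start of the gene on its own strand, from RefSeq on GRCm38.p6. Capitals mark 4 motifs searched on both strands: the TATA box TATAAA, the CCAAT box CCAAT, the Sp1-type GC box GGGCGG and the AP-1 site TGAGTCA. These windows lie at chr6:4505368-4505617 (Col1a2, plus strand), chr1:45311288-45311537 (Col3a1, plus), chr11:55420081-55420330 (Sparc, minus), chr9:7502092-7502341 (Mmp10, plus) and chr10:27616943-27617192 (Lama2, minus).
Col1a2: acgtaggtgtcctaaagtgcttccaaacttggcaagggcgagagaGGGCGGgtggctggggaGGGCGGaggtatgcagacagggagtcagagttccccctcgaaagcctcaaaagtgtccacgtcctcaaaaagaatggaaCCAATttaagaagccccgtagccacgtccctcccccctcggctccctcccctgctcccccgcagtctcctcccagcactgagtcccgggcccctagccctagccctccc
Col3a1: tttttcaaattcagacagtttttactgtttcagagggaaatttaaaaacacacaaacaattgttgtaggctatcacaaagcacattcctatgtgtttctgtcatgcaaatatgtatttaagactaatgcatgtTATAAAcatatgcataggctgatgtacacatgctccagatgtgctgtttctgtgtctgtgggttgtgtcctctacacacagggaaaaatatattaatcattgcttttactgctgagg
Sparc: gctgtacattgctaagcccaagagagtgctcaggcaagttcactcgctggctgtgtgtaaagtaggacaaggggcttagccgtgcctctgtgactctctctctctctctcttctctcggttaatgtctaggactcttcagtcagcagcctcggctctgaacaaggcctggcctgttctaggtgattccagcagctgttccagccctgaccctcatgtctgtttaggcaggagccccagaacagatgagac
Mmp10: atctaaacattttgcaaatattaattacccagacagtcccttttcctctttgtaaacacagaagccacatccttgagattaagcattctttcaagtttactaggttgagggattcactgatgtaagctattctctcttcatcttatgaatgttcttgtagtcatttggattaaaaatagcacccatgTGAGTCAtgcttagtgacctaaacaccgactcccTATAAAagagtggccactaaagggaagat
Lama2: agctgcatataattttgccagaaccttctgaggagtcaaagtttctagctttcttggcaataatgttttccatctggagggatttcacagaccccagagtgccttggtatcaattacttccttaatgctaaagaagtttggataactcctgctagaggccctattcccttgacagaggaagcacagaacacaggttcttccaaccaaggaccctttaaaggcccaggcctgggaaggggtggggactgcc
Col1a2 had 2 GC boxes and a CCAAT box, Col3a1 a TATA box that begins 117 bases before the start, and Mmp10 a TATA box 29 bases and an AP-1 site 63 bases before it. In the Sparc and Lama2 windows none of these letters occurred, which says only that they are not in these windows. No motif overlapped another. Over all 32851 windows of the same length in the table, 12.4% held TATAAA, 33.8% CCAAT, 32.7% GGGCGG and 4.46% TGAGTCA. For the set, 65 windows of 58 genes were matched by symbol, and 12, 20, 32 and 8 of them held these motifs in that order (18.5%, 30.8%, 49.2% and 12.3%). The AP-1 letters were in 7 of 17 metalloproteinase windows. They were in 0 of the 26 windows of genes called lower, where few would occur at the rate of all windows. In the same order, TATAAA was in 7 and 3 of these windows, CCAAT in 3 and 7, and GGGCGG in 4 and 17. Metalloproteinase promoters are known for AP-1 sites. A match is a run of letters and not a measured binding site.

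Network collagens held 9 spots of 9 genes. Of the 6 fitted, 3 were called lower: Col4a5 (-5.59 ± 1.11, SE), a basement membrane chain of kidney and other organs, Col10a1 (-4.39 ± 0.95), the collagen of hypertrophic cartilage, and Col8a1 (-4.01 ± 0.31), a chain of vessel wall and cornea. Col8a1 was below 0 on 12 of 12 arrays. Col4a1 and Col4a2 encode the commonest chains of basement membranes. Col4a1 had a value on 1 array (-0.91 in NLS 0GH c), and Col4a2, at -0.90 ± 0.38 (SE), missed the threshold (adjusted p = 0.0796, limma) with 9 of 12 values below 0. Without array NLS 1GH c, where Col4a2 stood at 1.08, its level was -1.13 with an adjusted p of 0.0401 in the same limma fit. Col4a4 stood at -0.46 and Col8a2 at -1.22, neither called. With the letter as a replicate block Col8a2 was called lower (-1.41, adjusted p = 0.0348, limma). Col4a3 and Col4a6 were not fitted and averaged -2.75 ± 3.55 (SD, n = 8) and -3.39 ± 1.98 (SD, n = 9).

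The remaining collagens, which sit on fibrils, in membranes or as beaded filaments, held 23 spots of 20 genes. Of the 11 spots (10 genes) fitted, 11 were called lower. Col9a1 (-7.13 ± 0.91, SE) and Col9a2 (-6.28 ± 0.78) encode chains of type IX collagen, which coats cartilage fibrils. Col12a1 (-6.45 ± 0.29), the fibril-associated collagen of tendon, was below -3 on each of the 11 arrays that measured it. Col6a2 (-2.97 ± 0.22), a chain of the type VI microfibrils, was nearly as steady as Col1a2, between -4.07 and -1.85. Col18a1, the source of endostatin, stood at -4.85, Col6a4 at -4.57, Col23a1 at -3.82 and Col7a1, the anchoring fibril of skin, at -0.83 (adjusted p = 0.0467, limma). Of the spots that were not fitted, Col16a1 averaged -6.84 ± 1.35 (SD, n = 8), and Col13a1, a membrane-spanning collagen, averaged 0.74 ± 0.78 (SD, n = 7) with 1 of its values below 0.

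Laminins are trimers of an alpha, a beta and a gamma chain. With nidogen 1 (Nid1), their link to collagen IV, and perlecan (Hspg2), the large heparan sulphate proteoglycan of the membrane, they held 15 spots of 12 genes. Of the 9 spots (8 genes) fitted, 4 were called lower, 1 higher and 4 not called. Hspg2 (-5.01 ± 0.71, SE), Lamb2 (-4.84 ± 0.47), the beta chain of muscle and kidney, and Lama4 (-3.41 ± 0.36), the alpha chain of vessel walls, were below 0 on the 11 arrays that measured each. Lamb1, the beta chain of the early embryo's laminin, was not fitted, with values on 8 arrays from -12.82 to -6.90. It was far below 0 on all of them. Lamc1, the gamma chain of most laminins, had no value on any array.

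Lama2, the alpha chain of muscle laminin, was the laminin called higher. It stood at 2.88, 1.81 and -0.71 in NLS 1GH, at 0.29, -0.01 and 1.72 in NLS 0GH, at 0.16, 1.64 and -0.85 in WT 1GH, and at 2.49, 1.23 and 1.02 in WT 0GH. Thus 9 of 12 values were above 0, and every group overlapped the others. The level was 0.97 ± 0.35 (SE, adjusted p = 0.0442, limma), and the call was lost without any of 10 single arrays out of 12, the exceptions being NLS 1GH d and WT 1GH d (adjusted p from 0.0553 to 0.104 in limma). Nid1 was close to 0 with little scatter, at -0.37 ± 0.17 (SE), 11 of 12 values below 0 and an adjusted p of 0.0963 in limma. With the letter as a replicate block the same level was called (adjusted p = 0.0462, limma). Lama5 (-1.0) and Lamb3 (-1.11), an alpha chain of mature basement membranes and the beta chain of the skin's laminin, were not called.

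Glycoproteins, elastic fibre genes and small leucine-rich proteoglycans held 8 spots of 7 genes. Of the 7 fitted, 6 were called lower, 0 higher and 1 not called. Sparc, a collagen-binding glycoprotein of matrix-forming cells, stood at -5.71, -4.16 and -4.66 in NLS 1GH, at -5.07, -4.47 and -5.11 in NLS 0GH, at -3.92, -4.13 and -5.27 in WT 1GH, and at -4.43, -3.62 and -4.74 in WT 0GH. All 12 arrays agreed in side and nearly in size, the groups overlapped, and the level was -4.61 ± 0.21 (SE, adjusted p = 8.71e-07, limma). Eln, the core of elastic fibres, was as steady, at -3.87 ± 0.23 (SE), from -4.64 to -2.31. Fbn2, the fibrillin of developing tissue (-5.06 ± 0.34), and Dcn, a proteoglycan that binds collagen fibrils (-5.27 ± 0.43), were below 0 wherever measured. Bgn, its close relative, was at -1.71 ± 0.33 (SE). Lum, another proteoglycan of this family, was the exception at -1.40 ± 0.80 (SE, adjusted p = 0.183, limma), with values from -6.10 on WT 0GH c to 5.38 on NLS 1GH b.

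Metalloproteinases held 20 spots of 19 genes, and their fitted levels had a median of -0.20. Of the 15 spots (14 genes) fitted, 5 were called lower, 1 higher and 9 not called. Of all spots tested, 19.8% were called lower and 24.6% higher. Mmp11, known from stromal cells around epithelia, was lowest at -5.38 ± 0.51 (SE), with 10 of 10 values below 0. Mmp16, a membrane-type enzyme (-2.57 ± 0.48), Mmp28 (-1.22 ± 0.18) and the gelatinases Mmp9 (-2.10 ± 0.34) and Mmp2 (-1.95 ± 0.24) were below 0 on all 12 arrays. Mmp14, the membrane enzyme that activates Mmp2, was not called (-0.24 ± 0.47, SE), with 7 values below 0 and 5 above. Without letter c its sign turned, to 0.59, and without array NLS 0GH c the level was 0.02.

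Mmp10, stromelysin 2, which cuts proteoglycans and activates procollagenases, was the metalloproteinase called higher. It stood at 2.70, 1.18 and 0.74 in NLS 1GH, at -0.83, 1.68 and 3.0 in NLS 0GH, at -1.22, 1.78 and 1.60 in WT 1GH, and at 2.18 and 3.06 in WT 0GH c and d, where b had no value. Of its 11 values 9 were above 0. WT 1GH lay below WT 0GH without overlap (difference -1.90 ± 1.27, SE, not called), while the other pairs of groups overlapped. The level was 1.54 ± 0.43 (SE, adjusted p = 0.0165, limma), and without array WT 0GH d it was 1.43 and no longer called (adjusted p = 0.0588, limma). Mmp3, stromelysin 1, was at 0.35 ± 0.19 and the pair of Mmp19 spots at 0.43 and 0.80, none called. Mmp12, the macrophage elastase, was at -0.98 ± 0.80 (SE). A single array, WT 1GH c at -10.47, lay far from the other 11 values of this spot, which ran from -1.29 to 1.49.

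The inhibitors were low as a role. Timp2 (-3.35 ± 0.78, SE), Timp3 (-2.68 ± 0.65) and Timp4 (-2.41 ± 0.56) were fitted and 3 of 3 were called lower. Timp1, the secreted inhibitor that many cell types induce, was not fitted because WT 1GH and WT 0GH each had 1 value, and averaged -4.63 ± 1.39 (SD, n = 7), with 7 of 7 below 0. Timp2 varied most, from -8.69 in WT 1GH d to 0.68 in NLS 1GH c. Without letter d its adjusted p was 0.057 in limma.

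Genes that work with the set were read from lists that hold no member of it. Of 16 fitted spots (14 genes) for collagen processing, 8 were called lower and 2 higher (50% and 12.5%, against 19.8% and 24.6% of all spots tested), with a median level of -0.68. Loxl1 (-5.75) and Lox (-3.93), which cross-link collagen and elastin, and P4ha2 (-4.76), a prolyl hydroxylase subunit, were lower, while P3h1 (1.89) and Ppib (2.01), which modify and fold collagen chains, were higher. Serpinh1, the collagen chaperone, had one spot called lower (-4.58) and another at 0.90 that was not called (adjusted p = 0.055, limma). Of 24 fitted spots (22 genes) for matrix receptors, 10 were called lower and 8 higher (41.7% and 33.3%), with a median of -0.43. The integrin chains Itga4 (2.93), Itgb7 (3.19) and Itga6 (2.13) were higher, while Itga2 (-5.42), a collagen receptor chain, and Sdc1 (-3.95), a heparan sulphate proteoglycan, were lower. Other matrix proteins had 11 of 33 fitted spots called lower and 3 higher (33.3% and 9.09%, median -0.60), with Vtn (-5.64) and Fbln1 (-4.59) lowest. Of 14 other matrix proteases and inhibitors, 1 was called lower (Adam19, -1.82) and 4 higher (7.14% and 28.6%, median 0.19), the highest being Adam10 at 4.08, a membrane protease that sheds cell surface proteins.

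For 7 genes the arrays carried more than one spot, 16 spots in all. Both Mmp19 spots (0.43 and 0.80) and both Col14a1 spots (means of -2.59 and -2.42) stood close together. Both Col14a1 spots were called lower, but the first lost its call without array WT 1GH c (adjusted p = 0.0543, limma) and when any one letter was left out. Fn1, which encodes fibronectin, did not: the first spot averaged -1.24 over 12 arrays and the second -9.08 over 7. The first was called lower (-1.24 ± 0.44, SE, adjusted p = 0.041, limma). That call was lost with the letter as a replicate block (adjusted p = 0.0595, limma) and without each of 9 single arrays, which were all those of NLS 1GH, NLS 0GH and WT 0GH (adjusted p from 0.0512 to 0.0931). The 3 Col6a3 spots averaged -1.79 over 11 arrays, -5.52 over 5 and -8.35 over 7, all below 0, and the Col11a1 spots -8.71 over 6 and -6.88 over 9. The Lama3 spots stood on different sides of 0, at -1.61 (called, adjusted p = 0.0161, limma), 0.15 (not called) and a mean of 0.44 over 3 arrays. The call of the first was lost without letter c or d and without centring (adjusted p = 0.13, 0.103 and 0.0652, limma). The sign of the second of these turned without single arrays, down to -0.16 without WT 0GH b. The Lama1 spots averaged -3.99 over 7 arrays and -2.53 over 4.

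Neighbouring genes on a chromosome, as ordered among protein-coding genes in RefSeq, often stood apart in level or in measurability. Col3a1 and Col5a2 are direct neighbours and were both low (-3.29 and a mean of -10.57). Col4a5 and Col4a6, a head-to-head pair on the X chromosome, were both low too (means of -5.47 and -3.39), and so were Col6a1 and Col6a2 (means of -7.92 over 6 arrays and -2.97 over 12). Dcn and Lum, another adjacent pair, averaged -5.18 and -1.71. The pair Col4a1 and Col4a2, whose starts lie head to head, had values on 1 and on 12 arrays. In the metalloproteinase cluster of chromosome 9, which held 9 of the spots, the 5 measured on at least 6 arrays (Mmp3, Mmp7, Mmp8, Mmp10 and Mmp12) averaged between -0.98 and 1.44, with a median of 0.35, while their neighbours Mmp1a, Mmp1b, Mmp13 and Mmp20 had values on 2 arrays at most.

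Values were missing slightly more often in the set than elsewhere. Of its 1092 possible values 254 had none (23.3%), against 20.0% of the values of all gene spots and 88.2% of those of blank spots. Only 35 of the 91 spots (38.5%) were measured on all 12 arrays, against 50.8% of gene spots, but the share measured on 6 arrays or fewer, 16 spots (17.6%), was close to that of all gene spots (18.9%). The arrays ranged from 9 missing spots of the set (WT 0GH d) to 29 (NLS 1GH b and WT 1GH b). The gap followed the letters more than the groups: 30.5% of the set was missing on b arrays, 23.6% on c and 15.7% on d, against 26.5%, 17.3% and 16.2% of all gene spots. By group it was 22.0% in NLS 1GH, 24.5% in NLS 0GH, 24.5% in WT 1GH and 22.0% in WT 0GH, against 18.4%, 22.8%, 19.04% and 19.7% of all gene spots in the same order. By role, fibrillar collagens lacked 8.33% of their values and the glycoprotein group 9.38%, whereas laminins with nidogen and perlecan lacked 30.0% and the other collagens 33.0%.

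**Figure D3:**
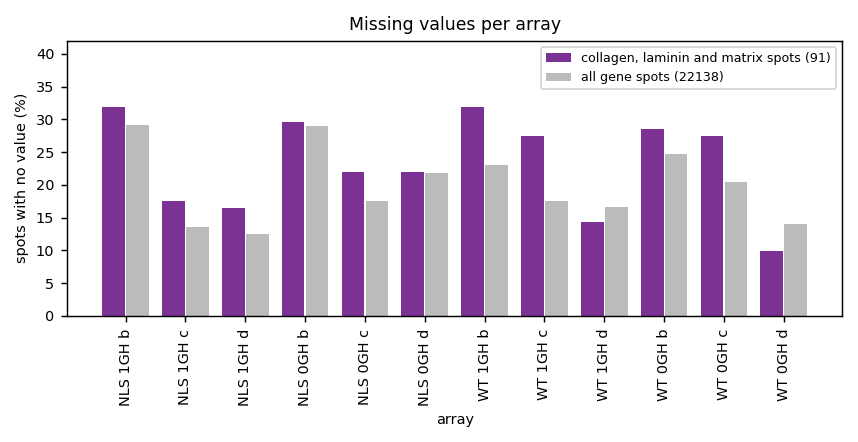
Percentage of spots with no value on each array, for the 91 collagen, laminin and matrix spots (purple) and for all gene spots (grey). The b arrays have the tallest pairs of bars, and WT 0GH d has the lowest purple bar, at 9.89%.

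The 16 spots with values on 6 arrays or fewer were both structural and enzymatic. Lamc1 and Mmp1b had no value at all. Col4a1, Col19a1, Col25a1, Mmp1a and Mmp13 had 1 value each, which came from NLS 0GH c for Col4a1 and from WT 0GH d for the other 4. WT 0GH d was also the array with the fewest missing spots of the set. Lamc3 and Mmp20 had 2 values, Col17a1 and a Lama3 spot 3, Col9a3 and a Lama1 spot 4, a Col6a3 spot 5, and Col6a1 and a Col11a1 spot 6. The level differed with the number of values. The median of the spot means was -1.22 for the 35 spots with 12 values, -3.98 for the 29 with 9 to 11, -4.63 for the 11 with 7 or 8 and -2.53 for the 9 with 2 to 6, against 0.27, -0.49, -1.69 and -2.57 for all gene spots in these classes. The set thus had the lower median in the 3 classes with at least 7 values, and nearly the same median among spots with 2 to 6 values. In the 35 complete spots 13 (37.1%) were below the array median on all 12 arrays and 0 were above it on all 12, against 7.83% and 13.1% of the 11245 complete gene spots. A further 30 spots of the set were left out of the fit, and of the 17 of these with at least 5 values 16 had a mean below 0.

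Of the 91 spots, 47 shared the next-to-last number of the spot address, 16, as did 1093 other gene spots. The spots of the set with that number had a median of -3.65, those elsewhere -2.02, and other gene spots stood near 0 at both (-0.10 and -0.01). The set was thus low with that number and without it, and the part of the address in the size of the level was not tested.

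No difference among the 4 groups passed the threshold, although the fit can miss large ones. In each of the 7 comparisons limma called 0 of the 61 fitted spots, and 0 of all 16063, so the background is 0% in each: NLS minus WT at 1GH, at 0GH and averaged, 1GH minus 0GH in NLS, in WT and averaged, and the interaction. The spots of the set had a median SE of 0.86 for an averaged difference and of up to 1.24 for a difference within one GH number or one receptor form. In simulated data, changes were added to NLS minus WT averaged. The fit called 22% of those of 2 log2 units and 65% of those of 4, so 0 calls do not show that the groups were alike. It also called 5 unchanged spots. The changed spots were drawn from all those fitted, with noise independent between arrays, so these rates need not hold for the set. Among spots with at least 6 values, the set scattered more (median SD 1.84, against 1.42 for all gene spots). At an unadjusted p under 0.05 limma listed 7 spots of the set for NLS minus WT at 1GH (11.5%, against 3.53% of all spots), 3 at 0GH (4.92%, against 5.30%) and 7 averaged (11.5%, against 5.65%). For 1GH minus 0GH it listed 3 in NLS, 3 in WT and 3 averaged (4.92% each, against 3.63%, 2.94% and 3.41%), and for the interaction 4 (6.56%, against 3.11%). The lowest adjusted p of the set in any comparison was 0.734 (Col12a1, NLS minus WT at 0GH, limma). Marker levels overlapped between the groups: the array medians of the fibroblast and stroma list ran from -1.50 to 0.06 in NLS and from -0.95 to -0.26 in WT, and those of the B lymphoid list from 0.49 to 3.76 in NLS and from 0.08 to 2.88 in WT. Their part in any difference was not tested.

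The values below are given as descriptions, for the spots with the smallest p in each direction. Lama4 averaged -2.75 ± 0.72 (SE) in NLS minus WT over both GH numbers (unadjusted p = 0.00373, adjusted p = 0.812, limma). It stood at -2.77, -4.05 and -4.87 in NLS 1GH, against -0.35 and -1.19 in WT 1GH b and d, with no value on WT 1GH c. At 0GH it stood at -4.99, -4.49 and -7.55 in NLS, against -2.01, -3.84 and -4.05 in WT. NLS was the lower at either GH number without overlap, and 1GH minus 0GH was positive in both forms (1.78 in NLS, 2.53 in WT, 2.15 ± 0.72 averaged, adjusted p = 1.0). None of these passed the threshold.

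Col12a1 had the smallest p of the set, in NLS minus WT at 0GH: -4.94 ± 0.86 (SE, unadjusted p = 0.000247, adjusted p = 0.734, limma). It stood at -10.02 and -7.89 in NLS 0GH b and c, against -3.05, -4.65 and -4.35 in WT 0GH. At 1GH it stood at -5.68, -5.73 and -7.04 in NLS, against -7.56, -6.27 and -6.23 in WT. The 0GH groups did not overlap and the 1GH groups did. The GH difference accordingly had opposite signs, 2.80 in NLS and -2.67 in WT, and the interaction was 5.47 ± 1.15 (SE, unadjusted p = 0.000963, adjusted p = 0.999, limma). NLS 0GH d had no value for this spot, so the NLS 0GH mean rests on 2 arrays.

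Mmp11 averaged -2.91 ± 1.02 (SE, adjusted p = 0.868, limma) in NLS minus WT, at -9.54, -5.50 and -6.09 in NLS 1GH against -5.26 and -1.73 in WT 1GH, and at -6.79 and -6.46 in NLS 0GH against -4.24, -5.58 and -3.26 in WT 0GH. It was lower in NLS at each GH number, with arrays missing in either form. Col8a1 went the other way, with 1.88 ± 0.63 averaged (SE, adjusted p = 0.848, limma). It stood at -1.66, -2.77 and -2.41 in NLS 1GH, against -5.88, -4.92 and -5.06 in WT 1GH, and at -5.66, -2.78 and -3.10 in NLS 0GH, against -6.21, -3.85 and -3.76 in WT 0GH. The separation was at 1GH, where the difference was 3.01 ± 0.89 (SE, adjusted p = 1.0, limma), and the 0GH groups overlapped, though NLS was the higher in all 3 letters there too (by 0.55, 1.07 and 0.66 in b, c and d). Lamb3 averaged 2.60 ± 0.90 and Col10a1 3.86 ± 1.91 (SE, adjusted p = 0.848 and 0.893, limma), each with overlapping values at 0GH. Within letters b, c and d at 0GH, NLS minus WT was 5.48, 6.63 and 4.33 for Col10a1, all of one sign. With the letter as a replicate block its unadjusted p was 0.00259 (adjusted p = 0.619, limma). For Lamb3 the letters gave -0.64, 1.45 and 6.77, of mixed sign.

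**Figure D4:**
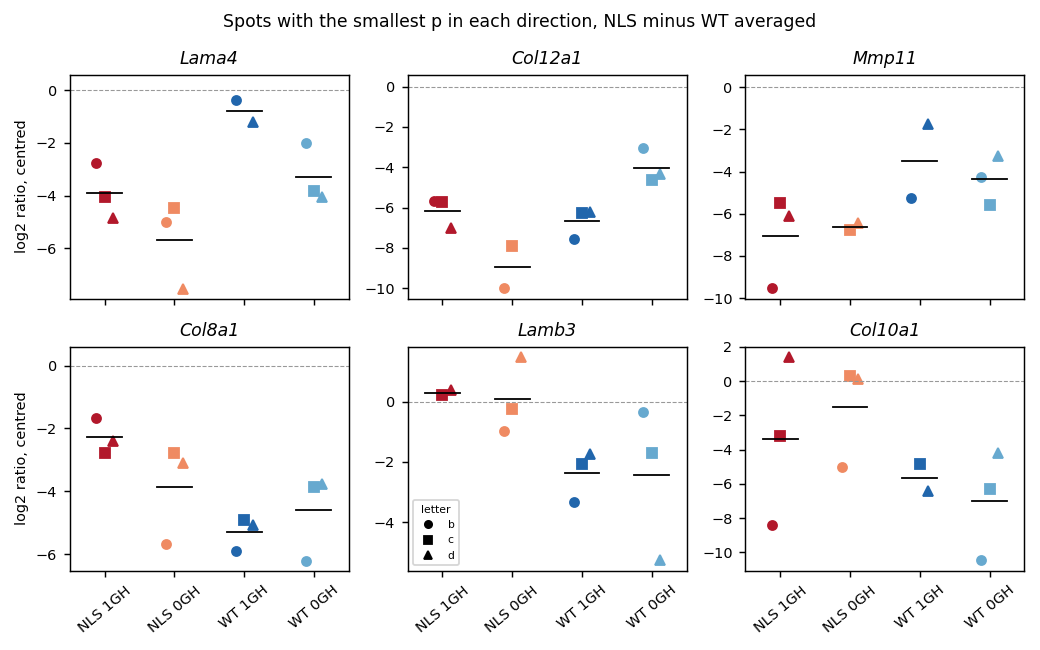
Centred log2 ratio on each array of the 6 spots with the smallest p in either direction for NLS minus WT averaged, by group from left to right and by letter (symbol), with a bar for the group mean. Lama4, Col12a1 and Mmp11 have lower NLS means at 0GH and Col8a1, Lamb3 and Col10a1 higher ones, with scatter of several log2 units within some groups.

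For NLS minus WT at 1GH the spots with the smallest p were, beside Col8a1, Col6a4 (3.58 ± 1.13, SE), Dcn (3.26 ± 1.21) and, in the other direction, Lama4 (-3.12 ± 1.07), Col5a1 (-2.03 ± 0.76) and Mmp11 (-3.55 ± 1.44). At 0GH they were, beside Col12a1, Col10a1 (5.48 ± 2.54), Lamb3 (2.53 ± 1.20) and one Mmp19 spot (2.63 ± 1.43), and Col7a1 (-2.32 ± 0.85) and Lama4 (-2.38 ± 0.95). Dcn stood at -2.57, -3.09 and -4.23 in NLS 1GH against -4.62 and -8.49 in WT 1GH c and d, so the groups did not overlap, while at 0GH they did. Col7a1 stood at -1.09, -2.70 and -2.70 in NLS 0GH against 0.49, -0.17 and 0.13 in WT 0GH, again without overlap.

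For 1GH minus 0GH in NLS the leading spots were Col12a1, Dcn (3.02 ± 1.08, SE) and Bgn (2.39 ± 0.93) in the upward direction, and Col5a1 (-1.50 ± 0.76), Mmp23 (-1.37 ± 0.72) and one Mmp19 spot (-2.58 ± 1.43) in the downward one. Bgn stood at 0.22, 0.06 and -2.37 in NLS 1GH, against -3.87, -2.10 and -3.29 in NLS 0GH, which overlap through letter d. In WT they were Hspg2 (5.44 ± 2.12), Lama4 and one Lama3 spot (2.18 ± 1.28) upward, and Col12a1, the first Fn1 spot (-2.50 ± 1.24) and Col6a4 (-2.21 ± 1.13) downward. The Hspg2 difference rested on WT 0GH b at -10.96, with -3.91 on d and no value on c, against -2.28, -1.04 and -2.67 in WT 1GH. Averaged over both forms, Bgn (1.74 ± 0.66) and Col9a1 (4.16 ± 1.82) followed Lama4 among the higher ones, and Mmp23 (-1.06 ± 0.51), one Mmp19 spot (-1.85 ± 1.01) and the first Fn1 spot (-1.38 ± 0.88) had the smallest p among the lower ones. The interaction had its smallest p for Col12a1, Col6a4 (4.95 ± 1.70, SE) and Dcn (4.65 ± 1.72) among positive ones and for Hspg2 (-7.72 ± 2.85), Col5a1 (-1.40 ± 1.08) and Col24a1 (-2.22 ± 2.04) among negative ones, with an adjusted p of 0.999 for each in limma.

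Leaving out 1 array moved 17 of the 42 named differences by over 1.5 times. At 1GH, NLS minus WT for Dcn was 5.19 without WT 1GH c and 1.33 without WT 1GH d, and for Mmp11 -2.30 without NLS 1GH b and -1.78 without WT 1GH d. At 0GH it was 1.11 for Lamb3 without WT 0GH d and -1.44 for Lama4 without NLS 0GH d. For 1GH minus 0GH in WT, Hspg2 was 1.92 without WT 0GH b and 8.96 without WT 0GH d. In the same comparison the Lama3 spot was 0.41 without WT 1GH b, and Col6a4 was -3.43 without WT 1GH b and -1.38 without WT 1GH c. The first Fn1 spot was -0.80 without WT 1GH c, where it stood at -6.11. In NLS, Col12a1 was 1.74 without NLS 0GH b and the Mmp19 spot -1.65 without NLS 1GH b. Averaged, Col9a1 was 1.84 without NLS 0GH b, where it stood at -15.74, and 6.49 without NLS 0GH d. Also averaged, the Mmp19 spot and the first Fn1 spot were -1.09 and -0.53 without WT 1GH c. The interaction was 2.72 for Dcn without WT 1GH d and -4.19 for Hspg2 without WT 0GH b. For Col5a1 it was -2.14, -0.89 and -0.93 without WT 1GH b, WT 1GH d and WT 0GH d, and for Col24a1 -3.36 and -0.03 without WT 0GH c and WT 0GH d.

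Low genes described above as steady had averaged NLS minus WT differences below or slightly above their SE (-0.01 ± 0.42 for Col1a2, 0.36 ± 0.54 for Col1a1, -0.51 ± 0.42 for Sparc and -0.38 ± 0.46 for Eln). They were on the fixed list of matrix genes, but were called steady for their even values, so small differences follow in part from that choice. For 1GH minus 0GH in NLS, Col1a1 stood at 1.08 ± 0.77 (SE), without overlap between NLS 1GH and NLS 0GH.

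**Figure D5:**
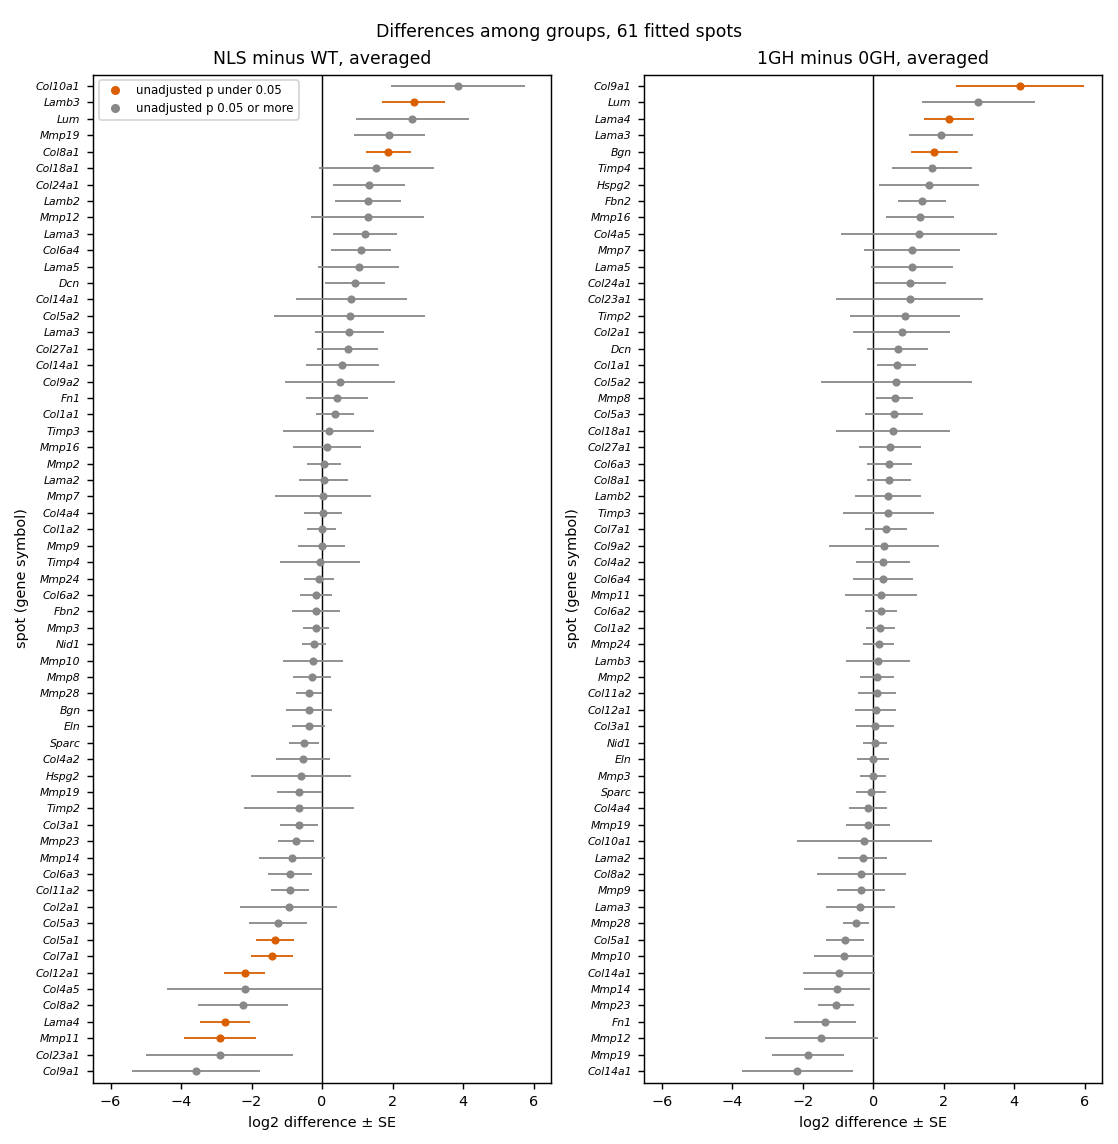
Averaged log2 differences with SE (limma) for the 61 fitted spots, NLS minus WT at the left and 1GH minus 0GH at the right, ordered by size. Orange marks an unadjusted p under 0.05 (7 spots at the left and 3 at the right), and none passed after adjustment over all 16063 spots.

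Within letters, of the 35 spots measured on all 12 arrays, 14 (40%) had NLS minus WT of the same sign in all 3 letters, 10 of them lower in NLS, against 31.4% of all gene spots. At 0GH it was 19 of 46 (41.3%, against 29.0%), 13 of them lower in NLS, and at 1GH 12 of 43 (27.9%, against 26.4%). For 1GH minus 0GH averaged over the forms it was 7 of 35 (20.0%, against 25.2%). The split by direction was not counted over all gene spots. At 0GH, 851 of all spots tested had an unadjusted p under 0.05 in limma, and only 300 of them were higher in NLS. The median difference of the set was -0.09 for NLS minus WT averaged, with 0.06 at 1GH and -0.62 at 0GH (all spots tested: -0.05, -0.04 and -0.05). It was 0.26 for 1GH minus 0GH averaged, with 0.38 in NLS and 0.01 in WT (all spots tested: 0.02, 0.01 and 0.03). The comparisons at 0GH and in NLS share the NLS 0GH arrays, and those at 1GH and in WT share the WT 1GH arrays.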

How the data were processed

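Each of the 12 arrays compared one mouse RNA with the embryonic reference in 2 colours. The deposited values are read as log2 ratios, with the base inferred from their range because no source states the unit. Per the series' design text, the authors fitted a Lowess curve over 50% of the data and raised the control channel to at least 200. No source used here names the scanner, the background method or a genome build. All values were multiplied by -1, which makes them sample over reference, and each array was centred on the median of its gene spots (uncentred medians of -0.91 to 1.22).

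Of 23040 spots, 573 blank, 235 Gapdh and 94 YIR controls were left out. Symbols came from the platform annotation: 16720 spots had 1 symbol, 142 several and 5276 none, and 16014 matched RefSeq by Entrez identifier with 0 symbols changed. Single spots with at least 2 values in each group (16063) were fitted with limma 3.58.1 (lmFit and eBayes, R 4.3.3) over all 12 arrays, without a block, two-sided, with Benjamini-Hochberg adjustment over all of them and a threshold of 0.05. The level is the mean of the 4 group means against 0. Because each group counts equally, it can differ from a plain mean over arrays where values are missing. The scripts were tested on simulated data. The number of arrays limits the precision, and intensities were not analysed here. Python 3.11.15 was used for the tables.

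The labels give every array of a letter the same red dye incorporation in bp per dye molecule (b 19.3, c 19.8, d 17.9), and the letter was therefore read as a shared labelling of the reference. Correlations of the deviations from group means were 0.0361 to 0.239 for arrays of the same letter and -0.186 to 0.0451 for arrays of different letters. For 12 of 12 arrays the best match was one of the same letter. On this reading the levels rest on 3 labellings of the reference. The main fit, without a block, treats the 12 arrays as independent, so its p-values for the levels may be too small.

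Alternatives were the letter as a fixed or random block, no centring, quantile normalization, spots on all 12 arrays, 1 value per group, spots averaged by gene, ratios limited to the scanner bound, a robust prior, and leaving out each letter or array. The spots named are the 10 lowest and 10 highest called levels (2 were higher), every fitted spot of genes with several spots, spots with values on 6 arrays or fewer, a fixed list of matrix genes, and per comparison the 3 smallest p-values in each direction. Genes of the processing, receptor and protease lists, and a few further spots, were picked for their values. The members and lists were chosen with earlier results of these data known.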

Additional observations from a re-analysis of the deposited data

Results flagged for a closer look

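A pair of metalloproteinase spots moved in opposite directions in every letter of the groups compared. They were found by sign alone among all spots of the set. The share of all gene spots with such a pattern was not counted, so it may be as common elsewhere. For Mmp12, 1GH minus 0GH was positive in all 3 letters of NLS (mean 0.938) and negative in all 3 letters of WT (mean -3.883). The WT mean rests on letter c, at -10.21, against -1.34 and -0.10 in b and d. The interaction, 4.82 ± 3.21 (SE), did not pass (adjusted p = 0.999, limma).

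For Mmp2, NLS minus WT was negative in all 3 letters at 1GH (mean -0.468) and positive in all 3 at 0GH (mean 0.589). Each of these differences was smaller than its SE of 0.69. The interaction, -1.06 ± 0.98 (SE), did not pass either (adjusted p = 0.999, limma).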

How the results depend on the processing

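The count of lower spots, 38 of 61 fitted, was 39 with the letter as a fixed replicate block, 34 with it as a random block and 50 of 79 when 1 value per group was enough. It was 19 of 35 among spots on all 12 arrays, 24 of 44 without letter b, 21 of 42 without c and 19 of 40 without d, where fewer spots were fitted, and the leave-one-out counts ran from 19 to 38. The 2 higher spots, Mmp10 and Lama2, became 0 under the random replicate block and 1 among spots on all 12 arrays, and leaving out arrays or letters gave 0 to 2. The median level of -1.95 was -1.22 among spots on all 12 arrays, -2.62 with 1 value per group, -2.63 with spots averaged by gene, and -2.07 to -1.36 in the leave-one-out fits. The missing share, 3.28 percentage points above that of all gene spots, was -64.9 points against blank spots. Without centring 39 of the 45 embryo genes stayed on the reference side.

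Signs turned in leave-one-out fits for Mmp14 (level -0.67 to 0.59), one Lama3 spot (level -0.16 to 0.43), another Lama3 spot in 1GH minus 0GH in WT (-0.0266 to 3.49, lowest without letter b) and Col24a1 in the interaction (-3.58 to 0.0662, highest without letter d). The cause was not tested. In all 7 group comparisons 0 spots of the set were called under each alternative, the replicate block included. Beyond the set, NLS minus WT averaged had 1 spot called under the random replicate block, against 0 without a block. The fixed replicate block added Nid1 (adjusted p = 0.0462, limma) and Col8a2 (0.0348) to the lower spots, took away Fn1 (0.0595) and changed no other call of the set. Of 1689 other recalculated values for named spots, 1638 kept direction and side, 40 lost a call, 3 gained one and 8 changed sign. Of the 76 named results behind them, 42 were group differences that were never called, which counted as kept unless the sign changed. The 40 lost calls were all of levels: the first Fn1 spot (15), Lama2 (13), a Col14a1 spot (5), a Lama3 spot (4), Mmp10 (2) and Timp2 (1).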
